A study of Mus musculus with 6 samples.

Results

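The MiT/TFE genes Mitf, Tfec, Tfe3 and Tfeb encode the 4 transcription factors best known for switching on lysosomal and autophagy genes. They were taken by their symbols from a deposited mouse expression table and are 4 of its 21959 genes. RNA-seq read counts were available for 6 libraries of wild-type (WT) mouse bone marrow-derived macrophages, primary macrophages grown from bone marrow in culture. The receiving cells spent 24 h in a mixture, in equal parts, of fresh complete medium and medium that alveolar macrophages, which live in the air spaces of the lung, had conditioned for 48 h. The donors of the conditioned medium were mice 8 to 12 weeks old, and their alveolar macrophages had been separated by the serotonin receptor HTR2C. One group of 3 libraries (P1 to P3) received medium from HTR2C-positive cells, and the other group of 3 libraries (N1 to N3) received medium from HTR2C-negative cells. All 6 libraries share the WT genotype and the exposure to conditioned medium, and no macrophages without conditioned medium were analysed here. The labels number the libraries without saying whether a number stands for a separate culture, mouse or batch of medium, so the spread between libraries of a group may be technical.

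MiT/TFE proteins are basic helix-loop-helix leucine zipper factors that bind DNA as homodimers or as heterodimers with one another, at E-boxes with the core CACGTG. Such sites are common in promoters of the CLEAR network (coordinated lysosomal expression and regulation), which holds lysosomal enzymes, the proton pump of the lysosome and autophagy genes. In fed cells the kinase complex mTORC1 phosphorylates the factors at the lysosomal surface and 14-3-3 proteins hold them in the cytosol, and on starvation or lysosomal stress the phosphatase calcineurin helps to release them to the nucleus. TFEB and TFE3 are expressed in many tissues and take part in macrophage inflammatory responses, MITF is known for its roles in pigment cells, mast cells and osteoclasts, and TFEC is expressed mainly in the macrophage lineage. Transcript levels, the only readout here, do not show phosphorylation or location of the proteins.

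The 4 genes are paralogs, and the stretch of coding sequence that they share best shows how alike their reads can be. The longest coding transcript of each gene in GENCODE M21 was searched for a shared block of 75 bases, printed 5′ to 3′ with capitals where all 4 genes carry the same base.
Mitf, coding bases 1009 to 1083 of 1578: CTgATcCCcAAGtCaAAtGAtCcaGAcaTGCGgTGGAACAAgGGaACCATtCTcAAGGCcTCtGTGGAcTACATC
Tfec, coding bases 406 to 480 of 951: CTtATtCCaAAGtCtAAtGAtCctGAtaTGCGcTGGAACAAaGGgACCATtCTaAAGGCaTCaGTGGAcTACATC
Tfe3, coding bases 1111 to 1185 of 1716: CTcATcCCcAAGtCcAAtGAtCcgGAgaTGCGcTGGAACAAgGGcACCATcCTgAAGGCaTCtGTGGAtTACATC
Tfeb, coding bases 955 to 1029 of 1602: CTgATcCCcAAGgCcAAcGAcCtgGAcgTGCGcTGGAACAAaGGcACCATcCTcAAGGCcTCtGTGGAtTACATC
All 4 genes were identical at 56 of the 75 bases, and pairs of genes at 77.3% (Tfeb with Tfec) to 86.7% (Mitf with Tfe3, and Tfeb with Tfe3). The longest run of identical bases between any pair, over all their coding transcripts, was 29 bases, shared by Tfeb and Tfe3. How reads that map to several places were counted is not given in the sources used here.

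A second set of sequences shows the E-box itself in target promoters, as RefSeq gives them for GRCm38.p6. Each window is printed on the gene's own strand with the motif in capitals. Positions are those of the first base of CACGTG, also inside a longer motif, counted from the transcription start.
Lamp1, + strand, chr8:13159088-13159117, motif at -61: agggcaagatatCACGTGgtccagcgccca
Lamp1, + strand, chr8:13159134-13159163, motif at -15: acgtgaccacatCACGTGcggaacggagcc
Ctsd, - strand, chr7:142387908-142387937, motif at -98: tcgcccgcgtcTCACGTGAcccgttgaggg
Mcoln1, + strand, chr8:3500462-3500491, motif at -45: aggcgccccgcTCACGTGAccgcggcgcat
Lamp1 encodes a major lysosomal membrane protein, Ctsd the protease cathepsin D and Mcoln1 the lysosomal calcium channel that activates calcineurin. The Lamp1 promoter held CACGTG at 4 places, and those of Ctsd and Mcoln1 at 2 each, which in 1 case each was the longer palindrome TCACGTGA. The promoter windows of the 4 MiT/TFE genes themselves (3 for Mitf, 3 for Tfeb, 2 for Tfe3 and 1 for Tfec, each 300 bases) held no CACGTG. Over all 32851 windows in the table, 7.15% held it.

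Total counts were 15545190 to 15728400 in HTR2C-positive-medium libraries and 12843971 to 16031723 in HTR2C-negative-medium libraries. A count of 0 allows up to 3 counts, or 0.187 to 0.234 CPM (counts scaled to a common library size) by library, and such limits cover counting error alone. The pair of libraries most alike came from different groups, P1 and N2 (r = 0.977 over log2 CPM), so values of the members without both are given as well. Leaving out a pair chosen for its likeness across the groups tends to widen their differences, so those values are no check of them. Counts of GC-rich genes ran high in P libraries and low in N libraries. The rank correlation of a library's deviation with GC content was 0.367, 0.281 and 0.257 in P1, P2 and P3. It was -0.463, -0.0785 and -0.349 in N1, N2 and N3, so N1 was farthest from the P libraries and N2 nearest. The trend runs along with the groups, so the design cannot tell its part in their differences from that of the medium. Fold changes are therefore also given with this trend and the trend with gene length removed. Of the macrophage markers, Lyz2 had a mean of 16981 CPM with HTR2C-positive and 17684 CPM with HTR2C-negative medium, and Adgre1 had 1221 CPM with HTR2C-positive and 1287 CPM with HTR2C-negative medium, so defining macrophage transcripts were abundant in both groups. Htr2c had no read in any library of the receiving cells.

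Mitf and Tfec were the abundant members, Tfe3 was several-fold lower, and Tfeb was near the detection limit in every library. The files place Mitf (ENSMUSG00000035158) on the plus strand of chr6:97784013-97998310 and Tfec (ENSMUSG00000029553) on the minus strand of chr6:16833372-16898440, in GRCm39. Tfe3 (ENSMUSG00000000134) lies on the plus strand of chrX:7628799-7641441, and Tfeb (ENSMUSG00000023990) on the plus strand of chr17:48047955-48103344. Levels of different genes were compared in FPKM, which divides the counts by gene length and by the library total.

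Mitf had 29.3, 23.2 and 28.9 FPKM in P1, P2 and P3, against 52.4, 31.1 and 45.1 FPKM in N1, N2 and N3. Tfec, named for its similarity to TFEB and TFE3, had 18.8, 15.5 and 15.7 FPKM in P libraries and 17.8, 16.9 and 19.2 FPKM in N libraries. All libraries thus placed Mitf first and Tfec second, and Tfec varied least of the 4 genes across the 6 libraries. Tfe3 had 4.63, 2.76 and 3.94 FPKM in P libraries and 1.37, 3.43 and 2.22 FPKM in N libraries. Tfeb had 0.102, 0.123 and 0.0681 FPKM in P libraries and 0.0137, 0.0770 and 0.0990 FPKM in N libraries. The Tfeb values rest on 9, 11 and 6 reads in P1, P2 and P3 and on 1, 6 and 9 reads in N1, N2 and N3. N1, which also had the lowest correlation with GC content, was the lowest library for both Tfe3 and Tfeb and the highest for Mitf.

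**Figure D1:**
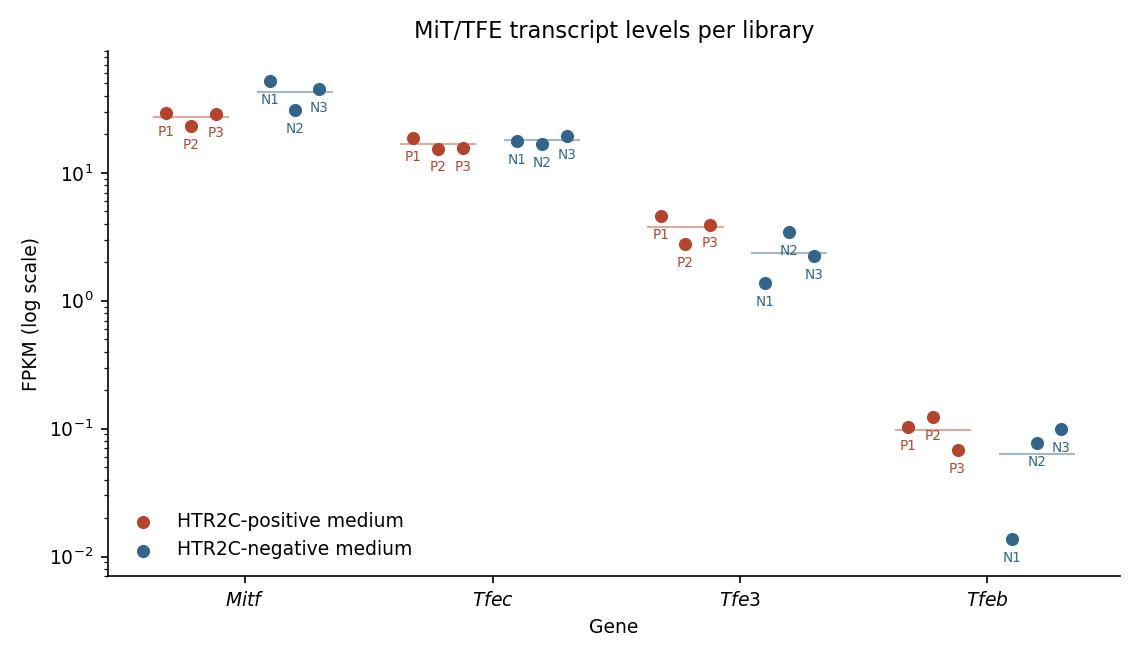
Transcript levels of the 4 MiT/TFE genes in FPKM (log scale) in each library, with points for libraries P1 to P3 (HTR2C-positive medium) and N1 to N3 (HTR2C-negative medium) and lines for group means. Mitf lies between 23.2 and 52.4 FPKM, with every P library below every N library, while Tfeb stays at or below 0.123 FPKM in all 6.

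The order Mitf, Tfec, Tfe3, Tfeb held in 6 of 6 libraries for every pair of neighbours. Mitf exceeded Tfec by a geometric mean of 1.95-fold (1.499- to 2.95-fold by library), and Tfec exceeded Tfe3 by 6.07-fold (3.99- to 13.0-fold). Tfe3 exceeded Tfeb by 42.5-fold, with 22.4- to 99.8-fold by library. The size of such ratios depends on the gene lengths used, 5594 bases for Tfec and 9261 bases for Tfe3. The mean log2 ratio of Tfec to Tfe3 was 2.60 in FPKM and 1.88 in CPM, without division by length. In an exact two-sided sign-flip permutation test over the 6 libraries, each of the 6 pairs of genes gave p = 0.03125, the smallest value that 6 libraries allow. The Benjamini-Hochberg adjusted value over the 6 pairs was also 0.03125. This test takes the libraries as independent, which the labels do not settle, and it does not cover errors that all libraries share, such as in gene length. Among the FPKM values of the 10177 genes that passed the filter on low counts, Mitf stood at the 85.8 to 92.5 percentile and Tfec at the 81.0 to 84.1 percentile. Tfe3 stood at the 42.7 to 61.0 percentile, in the middle of the expressed genes. Tfeb, which did not pass that filter, lay at a level equal to the 0.541 to 5.63 percentile of those genes.

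Other basic helix-loop-helix factors bind the same or related E-boxes, and the 2 leading members ranked high among them. Averaged over the 6 libraries, Hif1a, the oxygen-regulated factor that binds the related hypoxia response element together with ARNT, led with 71.4 FPKM and Mitf followed with 35.0 FPKM. Mxd1, a repressor partner of MAX, had 26.1 FPKM, Tfec 17.3 FPKM and Max, the common partner of the MYC network, 16.3 FPKM. Tfe3, at 3.06 FPKM, lay beside Srebf2 at 2.99 FPKM, a regulator of cholesterol synthesis, and Usf1 at 2.58 FPKM, a ubiquitous E-box factor. Tfeb, at 0.0805 FPKM, stood with Mxd4 (0.0945 FPKM) and Mxd3 (0.0784 FPKM) at the low end. The points of Tfe3, Srebf2 and Usf1 overlap in the plot of these factors, so their order among themselves is not separated.

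**Figure D2:**
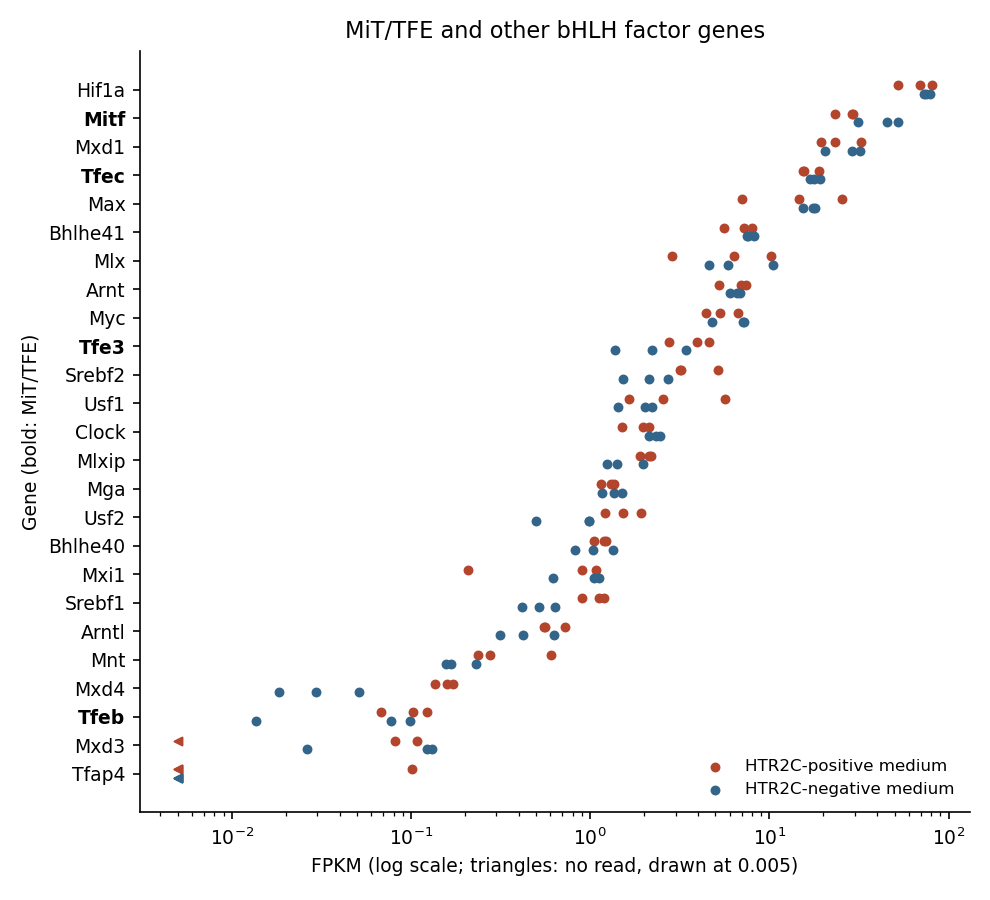
FPKM (log scale) of the MiT/TFE genes (bold) and of other basic helix-loop-helix factor genes, 1 point per library, with HTR2C-positive medium drawn above HTR2C-negative medium for each gene and genes sorted by their mean. Mitf (mean 35.0 FPKM) and Tfec (17.3 FPKM) lie near the top, and Tfeb (0.0805 FPKM) near the bottom.

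The question of the comparison is how macrophages given medium from HTR2C-positive alveolar macrophages differ from those given medium from HTR2C-negative ones. The 4 genes were chosen by symbol with their read counts in both groups of libraries in view, so their differences are described and not tested. On the scale of CPM with TMM library scaling, Mitf had 161, 150 and 168 CPM in P1, P2 and P3, against 368, 182 and 301 CPM in N1, N2 and N3. Its mean was 159.6 ± 9.25 CPM with HTR2C-positive medium and 284 ± 94.3 CPM with HTR2C-negative medium (SD, n = 3 each). The log2 fold change, HTR2C-positive minus HTR2C-negative medium, was -0.83 (SE 0.21). The groups did not overlap, but N2 lay close to the P libraries and N1 and N3 far above them. In bulk RNA, fewer cells that express a gene and less of its RNA per cell cannot be told apart.

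Tfe3 pointed the other way. It had 38.1, 26.6 and 34.3 CPM in P1, P2 and P3, against 14.4, 30.04 and 22.2 CPM in N1, N2 and N3. The means were 33.0 ± 5.84 CPM with HTR2C-positive medium and 22.2 ± 7.82 CPM with HTR2C-negative medium (SD, n = 3 each), a log2 fold change of 0.57 (SE 0.24). The groups overlapped, because N2 exceeded P2.

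Tfec differed less. It had 93.6, 90.1 and 82.5 CPM in P libraries and 113, 89.4 and 116 CPM in N libraries, so N2 fell within the P range and N1 and N3 lay above it. Its means were 88.7 ± 5.67 CPM with HTR2C-positive medium and 106 ± 14.5 CPM with HTR2C-negative medium (SD, n = 3 each), a log2 fold change of -0.26 (SE 0.15).

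Tfeb had too few reads for the filter and was compared by its pooled counts. HTR2C-positive-medium libraries held 26 reads of it (0.529 CPM) and HTR2C-negative-medium libraries 16 reads (0.393 CPM). The ratio of the pooled CPM was 1.35, with an exact 95% interval of 0.695 to 2.69 that covers counting error alone. Equal levels lie within that interval, so a difference of Tfeb between the media was not detectable at this depth.

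Of the 3 members that passed the filter, 1 had groups that did not overlap, against 22.3% of all 10177 tested genes (10.9% higher and 11.5% lower with HTR2C-positive medium). Since the contrast chose the members, nothing is read from that count. Across the table, 0 genes passed an adjusted p of 0.05 by edgeR's quasi-likelihood test and 0 by limma-voom, and DESeq2 called 394. At an unadjusted p under 0.05 edgeR counted 1690 genes, 16.6% of those tested. The SD of log2 CPM within groups was 0.374 for Mitf, 0.420 for Tfe3 and 0.160 for Tfec, beside a median of 0.308 over all tested genes.

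Mitf kept its sign under each processing tried and Tfe3 likewise, while Tfec did not. Over 16 settings, the reported one included, the log2 fold change of Mitf ran between -1.06 and -0.60, and that of Tfe3 between 0.34 and 0.85. The value of Mitf nearest 0 came without N1 and, almost equal, when the GC and length trend was taken out. Mitf transcripts have a GC content of 43.4% and Tfec transcripts 40.3%, under the median of 48.7% over all genes, while Tfe3 (52.1%) and Tfeb (63.2%) lie above it. With that trend removed, the log2 fold changes were -0.60 for Mitf, 0.43 for Tfe3 and 0.049 for Tfec. Without N2 and P1, a pair left out for its likeness across the groups, the log2 fold changes were -1.06 for Mitf, 0.74 for Tfe3 and -0.39 for Tfec.

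**Figure D3:**
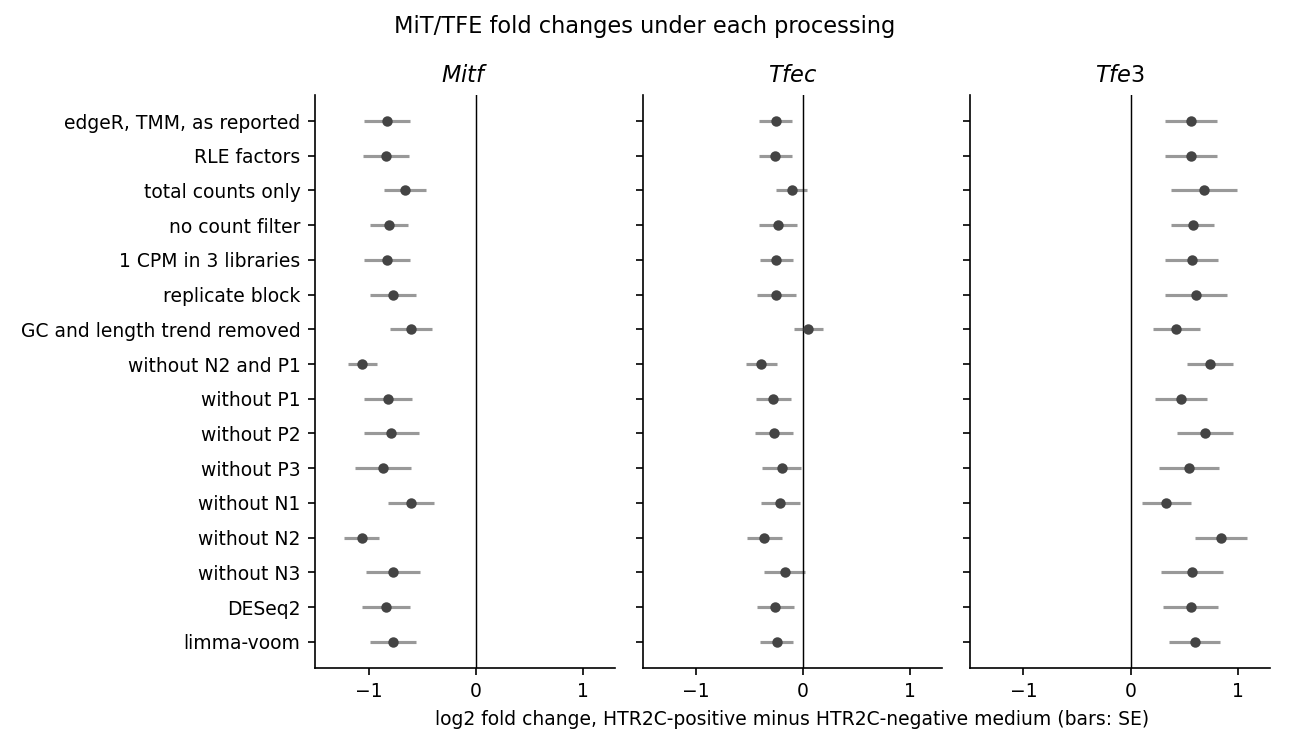
Log2 fold changes (HTR2C-positive minus HTR2C-negative medium, points) with their standard errors (bars) for Mitf, Tfec and Tfe3 under 16 settings, 1 per row. All 16 points of Mitf lie left of 0 and all 16 of Tfe3 right of 0, while Tfec reaches 0.049 in the row without the GC and length trend.

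Within a library the scaling between libraries cancels, so the make-up of the family pool can be read from shares of its summed FPKM. Mitf made up 55.4%, 55.8% and 59.4% of the pool in P1, P2 and P3, against 73.2%, 60.4% and 67.7% in N1, N2 and N3. Tfec made up 35.7%, 37.2% and 32.3% in P libraries and 24.8%, 32.8% and 28.8% in N libraries. Every P library had a lower Mitf share than every N library, and for Tfec only P3 lay within the N range, just under N2. The shares of a library add up to the whole, so a lower Mitf share raises the others. Tfec itself was not higher in P libraries, with a mean of 16.7 FPKM with HTR2C-positive and 18.0 FPKM with HTR2C-negative medium. Tfe3 held 8.76%, 6.64% and 8.11% in P libraries and 1.92%, 6.66% and 3.33% in N libraries. Tfeb held no more than 0.297% in any library. The ratio of Mitf to Tfe3 was 6.32, 8.41 and 7.33 in P libraries and 38.2, 9.07 and 20.3 in N libraries, without overlap. Its spread was far wider among N libraries than among P libraries. Since Mitf and Tfe3 differ in GC content, a share can carry the GC trend of a library, and its part in these shares was not tested. The family sum was 52.8, 41.6 and 48.6 FPKM in P libraries and 71.5, 51.6 and 66.7 FPKM in N libraries, with P1 above N2.

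**Figure D4:**
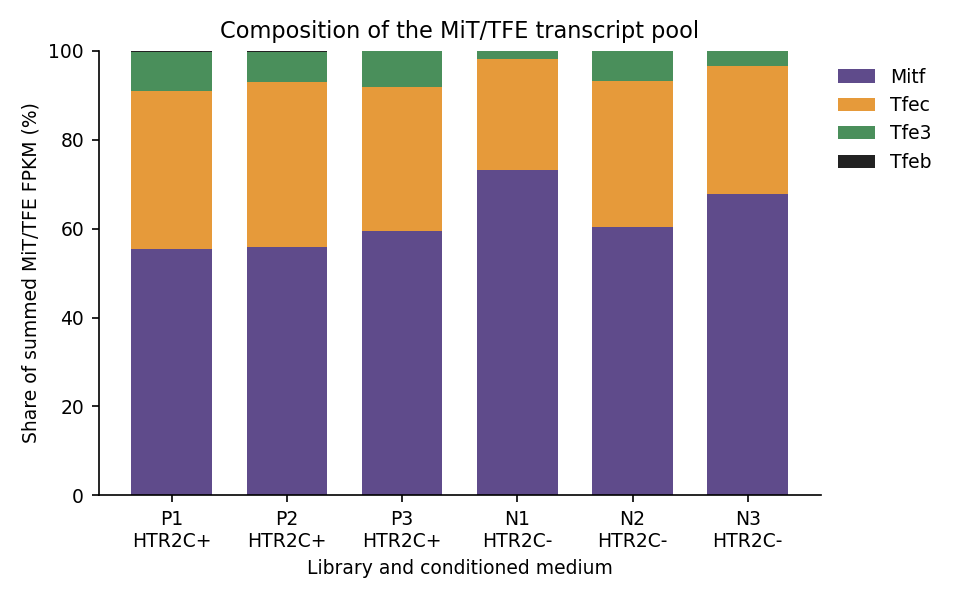
Share of each gene in the summed MiT/TFE FPKM (%, stacked bars from 0) for libraries P1 to P3 (HTR2C-positive medium) and N1 to N3 (HTR2C-negative medium). The Mitf share is 55.4% to 59.4% in P libraries and 60.4% to 73.2% in N libraries, and Tfeb, at no more than 0.297%, is hardly visible.

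Genes with the most similar profile were sought among 6681 tested genes averaging at least 5 CPM, by Pearson's r of log2 CPM over the 6 libraries, which include the difference between the groups. For Mitf they were Cnep1r1, a regulator of a nuclear envelope phosphatase (r = 0.991, Spearman's rho = 0.943), Cd274, which encodes PD-L1 (r = 0.991, rho = 0.829), and the zinc finger gene Zfp160 (r = 0.991, rho = 0.943). For Tfe3 they were the potassium chloride cotransporter gene Slc12a4 (r = 0.996), Ubtd1 (r = 0.994) and Adap1 (r = 0.989), each with rho = 1. For Tfec they were Ufd1 (r = 0.991, rho = 0.943), a cofactor of protein degradation at the endoplasmic reticulum, Psmd5 (r = 0.981, rho = 0.714) and Hccs (r = 0.981, rho = 0.886). With 6 libraries high r values are common: 90 genes exceeded r = 0.95 with Mitf, 53 with Tfe3 and 28 with Tfec. Tfeb had too few reads for such a profile.

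Upstream of the factors, genes of the mTORC1 arm at the lysosome had values on both sides of 0. Of 34 listed genes 31 were tested, and 3 had higher and 1 had lower values with HTR2C-positive medium when p was under 0.05 before adjustment, beside 7.9% higher and 8.71% lower over all tested genes. The median log2 fold change of the list was 0.02, equal to that of all tested genes. The 3 higher genes were Lamtor4, a subunit of the Ragulator scaffold, Rptor, the mTORC1 subunit that binds substrates, and the mTORC1 inhibitor gene Akt1s1. Lamtor4 had 21.3 ± 1.37 CPM with HTR2C-positive and 15.03 ± 0.710 CPM with HTR2C-negative medium (SD, n = 3 each), and its log2 fold change of 0.50 was 0.20 without the trend. Rptor had 7.37 ± 0.833 CPM with HTR2C-positive and 4.52 ± 0.885 CPM with HTR2C-negative medium (SD, n = 3 each). Its log2 fold change of 0.71 was 0.32 without the trend, and that of Akt1s1 went from 0.86 to 0.37. With the GC and length trend removed, 0 genes of the list were higher and 2 were lower at an unadjusted p under 0.05. Over all 10177 tested genes 520 were higher and 494 lower in that setting. Rragd, whose product brings MiT/TFE proteins to the lysosome and which is itself a target of the family, averaged 0.337 CPM with HTR2C-positive and 0.818 CPM with HTR2C-negative medium. These means rest on 5, 0 and 12 reads in P libraries and 14, 5 and 13 reads in N libraries. The groups overlapped, and the log2 fold change of -1.23 had an SE of 0.96.

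Among 30 genes of the phosphatase, 14-3-3, kinase, export and turnover steps, 28 were tested. Before adjustment 5 had higher and 6 had lower values at p under 0.05, and none passed the adjusted threshold. Over all tested genes these shares were 7.9% higher and 8.71% lower. Kinases of the family stood on both sides. Akt1, whose kinase phosphorylates TFEB, had 12.3 ± 1.34 CPM with HTR2C-positive and 5.65 ± 0.776 CPM with HTR2C-negative medium (SD, n = 3 each), a log2 fold change of 1.12 (SE 0.23). Akt2 had 30.4 ± 7.29 CPM with HTR2C-positive and 17.2 ± 2.06 CPM with HTR2C-negative medium, a log2 fold change of 0.82. Mapk3, which encodes the kinase ERK1, had a log2 fold change of 0.87. Without the GC and length trend these values were 0.64 for Akt1, 0.50 for Akt2 and 0.56 for Mapk3. Prkaa1, a catalytic subunit gene of the energy sensor AMPK, was lower, with 13.8 ± 1.28 CPM with HTR2C-positive and 21.3 ± 2.54 CPM with HTR2C-negative medium (SD, n = 3 each), and its log2 fold change of -0.62 was -0.31 with the trend removed. The kinase gene Map4k3, named after its value was seen, was at -0.52 with overlapping groups. The lower genes also included Xpo1, the exportin that carries MiT/TFE proteins out of the nucleus, with 33.1 ± 5.99 CPM with HTR2C-positive and 54.6 ± 12.2 CPM with HTR2C-negative medium (log2 fold change -0.72, and -0.41 with the trend removed). Ywhae, a 14-3-3 gene, had 723 ± 80.6 CPM with HTR2C-positive and 1055 ± 175 CPM with HTR2C-negative medium (log2 fold change -0.54, and -0.24 with the trend removed). The other 14-3-3 genes, also named after their values were seen, stood on both sides. Ywhag was at 0.41, and 0.24 with the trend removed. Ywhah was at -0.50 with overlapping groups and Ywhaq at -0.46 without overlap, and with the trend removed they were at -0.53 and -0.24. Ywhaz was at -0.21, Ywhab at 0.11 and Sfn at 0.48, all with overlapping groups.

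Downstream, the lysosomal genes of the CLEAR network leaned towards higher values with HTR2C-positive medium. Of 28 listed genes 27 were tested, and 21 of them had a positive log2 fold change, against 52.1% of all tested genes. The gene lists, this one included, were chosen with earlier results of these data known, so their counts are descriptions only. Before adjustment 5 of them had higher and 2 had lower values at p under 0.05, beside 7.9% and 8.71% of all tested genes, none passed the adjusted threshold, and the median log2 fold change was 0.34. Removal of the GC and length trend gave a median of 0.13, beside 0.04 over all tested genes, with 18 of 27 genes positive. Leaving out single libraries gave medians of 0.16 to 0.47, and leaving out N2 and P1 together gave 0.25. Some markers of myeloid cells also had positive values: 8 of 9 tested neutrophil markers were positive, with a median of 0.46, and the macrophage genes Csf1r (0.63) and Spi1 (0.59) were higher without overlap. Of all 10 macrophage markers 6 were positive, with a median of 0.10, and Cd14, Cd68 and Lyz2 were among the lower ones. The part of cell composition in the values of the lysosomal list was not tested.

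Ctsd, whose promoter is shown above, had 281, 205 and 204 CPM in P1, P2 and P3, against 79.4, 171 and 108 CPM in N1, N2 and N3. The groups did not overlap, and N2 again was the N library nearest to the P libraries. Its log2 fold change was 0.94 (SE 0.24), and 0.70 with the trend removed. Lamp1 had 234, 212 and 215 CPM in P libraries and 153, 189 and 163 CPM in N libraries, a log2 fold change of 0.39 (SE 0.15). Pip4p1, a lysosomal membrane phosphatase gene, had a log2 fold change of 0.85 both as counted and with the trend removed. Mcoln1 had 7.99, 6.82 and 3.14 CPM in P libraries and 4.51, 4.68 and 2.96 CPM in N libraries, which overlapped. Against this lean, Ostm1, the beta subunit of the lysosomal chloride transporter, had 31.4 ± 7.34 CPM with HTR2C-positive and 55.0 ± 8.99 CPM with HTR2C-negative medium.

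The E-box was more frequent in promoters of these lysosomal genes than in those of expressed genes at large. CACGTG, a palindrome that reads alike on both strands, lay in the windows of 13 of 21 listed lysosomal genes with an entry, 61.9%, against 11.97% of 8214 tested genes. The longer TCACGTGA, which contains it, lay in 33.3% against 2.37%. The 12 tested lysosomal genes with CACGTG had a median log2 fold change of 0.53, and 11 of 12 were positive. The 8 without it had a median of 0.14, with 6 of 8 positive, and the 7 without a table entry had 0.11. Removal of the GC and length trend gave medians of 0.36 with and 0.05 without the motif, and over the settings tried they were 0.28 to 0.67 with and 0.03 to 0.27 without it. Median GC content of the transcripts was alike at 53.05% with and 52.7% without the motif, and that of the promoter windows was not compared. Over all tested genes the medians were 0.05 with and 0.02 without CACGTG. The published network was itself drawn up from genes with such sites, so the frequency of the motif in the list is no independent result. The proton pump list went the other way, at 0.04 for 4 genes with and 0.18 for 6 genes without the motif, and so did the autophagy and feedback list, at -0.14 for 5 and 0.18 for 16 genes, although without the GC and length trend the autophagy medians were 0.12 with and 0.02 without the motif. No test was made of these splits, and the sites are matches of letters only.

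**Figure D5:**
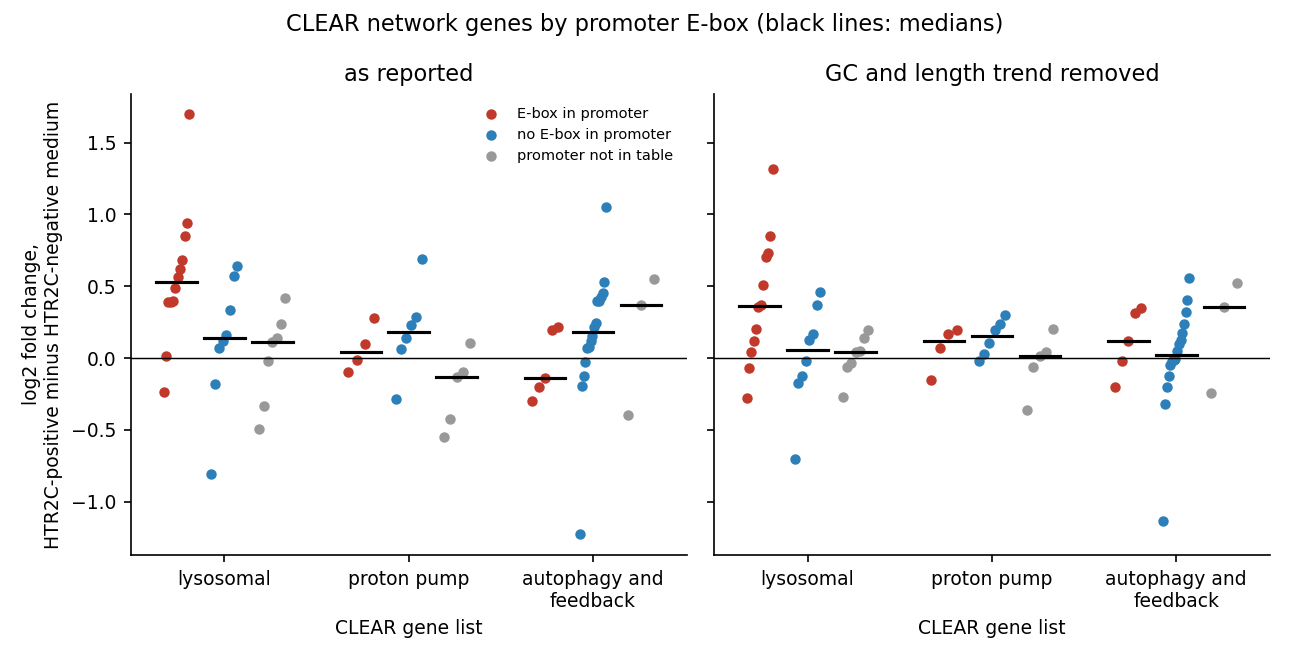
Log2 fold changes (HTR2C-positive minus HTR2C-negative medium) of tested CLEAR genes in 3 lists, split by the presence of the E-box in the promoter, 1 point per gene and black lines for medians, as counted (left) and without the GC and length trend (right). Lysosomal genes with the motif have a median of 0.53 (left) and 0.36 (right), against 0.14 and 0.05 for those without it, while in the other 2 lists the genes with the motif have the lower medians on the left.

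Subunits of the proton pump were mixed. All 15 were tested, 8 had positive log2 fold changes, beside 52.1% of all tested genes, and the median was 0.06. Before adjustment 1 had higher and 2 had lower values at p under 0.05, beside 7.9% and 8.71% of all tested genes. The higher one was Tcirg1, the a3 subunit, with 253 ± 32.3 CPM with HTR2C-positive and 157 ± 30.5 CPM with HTR2C-negative medium, and its log2 fold change of 0.69 was 0.24 with the trend removed. The lower ones were Atp6v1c1 (log2 fold change -0.55) and Atp6v0d2 (-0.42), and Atp6v0d2, a subunit typical of macrophages and osteoclasts, was at -0.06 with the trend removed. Of 27 autophagy and feedback genes 24 were tested, and 16 had positive log2 fold changes, beside 52.1% of all tested genes. Their median was 0.18 as counted, and it fell to 0.075 once the trend was taken out. At an unadjusted p under 0.05, 0 of these genes were higher and 1 was lower, beside 7.9% and 8.71% of all tested genes. The lower gene was Becn1, an initiator of autophagy, with a log2 fold change of -0.40. The autophagy receptor gene Sqstm1 was at 0.07 (SE 0.16). Gpnmb, a glycoprotein gene widely used as a readout of MiT/TFE activity, had 2643, 1752 and 1780 CPM in P libraries and 1666, 2146 and 1740 CPM in N libraries, which overlapped.

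Genes tied to the family in osteoclasts and activated macrophages showed no common direction. Of 21 listed 19 were tested, 12 had positive log2 fold changes, beside 52.1% of all tested genes. Before adjustment 4 had higher and 3 had lower values at p under 0.05, beside 7.9% and 8.71% of all tested genes. Csf3r, the receptor gene of granulocyte colony-stimulating factor and a described target of TFEC in mouse macrophages, had 147, 109 and 132 CPM in P libraries and 84.0, 108 and 89.1 CPM in N libraries, with P2 barely above N2. It is also a neutrophil marker, and the neutrophil list, whose Ly6g and Cxcr2 had no read in any library, summed to 1124 to 1416 CPM in P libraries and 954 to 1177 CPM in N libraries, most of it from S100a8. Of 9 tested neutrophil markers, Csf3r included, 8 had positive log2 fold changes, with a median of 0.46 and, without the GC and length trend, of 0.30. Before adjustment 3 had higher and 1 had lower values at p under 0.05, and their part in the Csf3r difference was not tested. Acod1, which makes itaconate, had 4047, 2959 and 3627 CPM in P libraries and 2267, 3057 and 2541 CPM in N libraries, with N2 above P2. The inflammatory cytokine genes Tnf and Il6 went opposite ways, with log2 fold changes of 0.78 for Tnf and -0.56 for Il6, and the groups overlapped for both. For Tnf, P1 alone lay above all N libraries, and over the settings tried its log2 fold change was 0.22 to 1.00. With the GC and length trend taken out, Il6 was at -0.13.

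Markers of other cells that express Mitf differed in abundance. Of 7 melanocyte markers none was tested, Tyr, Mlana, Slc45a2 and Oca2 had no read in any library, and the list summed to at most 0.302 CPM in P libraries and 1.03 CPM in N libraries. Of the mast cell markers, Tpsab1, Tpsb2, Mcpt4 and Cma1 had no read in any library. The list summed to 43.7 to 77.2 CPM in P libraries and 47.6 to 65.6 CPM in N libraries, most of it from Hdc, which other myeloid cells also express. Cpa3, a mast cell protease gene, had 2.23, 1.46 and 2.12 CPM in P1, P2 and P3, against 6.90, 2.06 and 3.23 CPM in N1, N2 and N3, a log2 fold change of -1.05 (SE 0.45). Like Mitf it was highest in N1, and its groups overlapped. The part of mast cells in the Mitf difference was not tested. Of the 8 osteoclast markers 5 were tested, among them Acp5 and Ctsk, with means of 19.2 and 16.02 FPKM over the 6 libraries, close to the level of Tfec. The list summed to 70.5 to 87.4 CPM in P libraries and 70.9 to 84.4 CPM in N libraries, and its part in the Mitf difference was not tested.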

How the data were processed

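The deposited table gives, per the file headers, raw read counts and FPKM per gene and library, with GRCm39 coordinates. The authors' FPKM values equal count over length and library total (largest relative difference 3.80e-07). Per the submitters' processing notes, the tools were fastp, HISAT2, StringTie and edgeR, without versions. Counting settings and the annotation release were not given in the sources used here. Counts were fitted in R 4.3.3 with edgeR 4.0.16 (filterByExpr, TMM, robust quasi-likelihood F test, 6 libraries, no covariate), with Benjamini-Hochberg adjustment over all 10177 tested genes and a threshold of 0.05. CPM values are TMM-scaled, and the limits of a count of 0 use library totals. The script was tested on 5 simulated sets with known changes. It called 14% of 1.5-fold, 54% of 2-fold and 80.8% of 4-fold changes at the adjusted threshold, and 0.07% of unchanged genes. The simulated counts held neither the GC trend nor the likeness of P1 and N2, so these shares may not hold for the real libraries. GC content came from GENCODE M21 (21851 genes matched), which is on another build, and promoters came from RefSeq. Alternatives were RLE factors, totals alone, other count filters, DESeq2 1.42.0, limma-voom (limma 3.58.1), a GC and length trend as offsets, the replicate block and left-out libraries. Members and lists were chosen with earlier results of these data known, the lists from general knowledge of the pathway. Named genes were the members, up to 3 per list and direction with the smallest p, the 3 most similar profiles per member, and 10 family targets picked by name. Not all of them are described.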

Additional observations from a re-analysis of the deposited data

How the results depend on the processing

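No gene passed the adjusted threshold by edgeR with all 6 libraries, but the count depended on the processing. It was 422 without the count filter, 394 by DESeq2, 1107 without N2 and P1, and 0 to 206 with single libraries left out (186 without P1, 206 without N2). N2 and P1 were left out because they were alike across the groups, which tends to raise such a count. Genes at an unadjusted p under 0.05 numbered 1690, but 1014 with the GC and length trend removed and 847 (without N1) to 2097 with single libraries left out. With single libraries left out, log2 fold changes were -1.06 to -0.60 for Mitf, 0.34 to 0.85 for Tfe3 and -0.36 to -0.17 for Tfec, and the Tfeb ratio was 1.04 to 1.95. The lowest Tfe3 value came without N1 and the highest without N2. The Tfec value became 0.049 with the GC and length trend removed, and the cause was not tested. Scaling by totals alone moved the median of all genes to 0.16 from 0.02, and gave -0.66 for Mitf, 0.69 for Tfe3, -0.11 for Tfec and a Tfeb ratio of 1.48. The order of levels was the same in each set of 5 libraries and in CPM, but 5 libraries allow no p under 0.0625. Same-numbered libraries did not deviate together (r = -0.13, -0.204 and 0.0439). With 3 libraries per group this cannot settle whether the numbers mark pairs. The replicate block left 0 genes called and 1175 at an unadjusted p under 0.05, with -0.78 for Mitf, 0.61 for Tfe3 and -0.25 for Tfec. Depth limits Tfeb alone among the members.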
